A study of Sus scrofa with 6 samples.

Results

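The genes examined here are GLUL, AXIN2, LGR5, RNF43, ZNRF3, TBX3, RGN, OAT and CTNNB1, 9 genes of the Wnt/β-catenin programme that marks hepatocytes around the central vein. They were chosen by name, as the rows of the deposited expression table whose gene symbol was on this list. All 9 were found among the 17109 genes of the table, and all 9 passed the filter on low counts that left 13401 genes for testing. The livers came from Bama minipigs, a miniature breed. The 3 ASGR1+/- animals (S03, S04 and S05) carried 1 allele of ASGR1 with a deletion made by CRISPR/Cas9, in a line started from clones of edited fibroblasts. The 3 WT animals (WT1, WT2 and WT3) carried no such deletion. ASGR1 encodes the major subunit of the hepatocyte asialoglycoprotein receptor. All animals were young and were fasted overnight, and 1 bulk RNA library was made from the liver of each. The allele was present in every cell of the ASGR1+/- animals, so the comparison does not isolate hepatocytes. The study compared the genotypes to learn what ASGR1 does in liver metabolism, and here S04 and S05 were set against WT1, WT2 and WT3 for these genes. S03 was left out of that fit, as in the study, which set it aside after a principal-component analysis, and its values are given apart.

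In the liver lobule, blood flows along hepatocyte plates from the portal vein to the central vein, and hepatocytes express different enzymes along the way. Endothelial cells of the central vein release Wnt ligands and R-spondin, and the hepatocytes next to them keep β-catenin, which enters the nucleus and drives genes with TCF. In mouse liver, loss of this signal removes glutamine synthetase and other pericentral enzymes. LGR5, RNF43, ZNRF3 and AXIN2 act in the pathway and are also its transcriptional targets, so their RNA serves as a readout of the signal. In bulk tissue, fewer cells of a type and less RNA per cell cannot be told apart.

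Library totals were between 15397768 and 16237732 estimated counts, so depth was nearly even. Levels are given as CPM, a count scaled to the library total, after scaling between libraries by the trimmed mean of M values (TMM), unless TPM, which is also per length of gene, is named. ASGR1 itself had 290 and 273 CPM in S04 and S05, 334 CPM in S03, and 300, 369 and 285 CPM in WT1, WT2 and WT3, with a log2 fold change of -0.18 ± 0.20 (SE, edgeR adjusted p = 0.652). A count over the whole gene includes any transcript left by the edited allele, so it is a weak check of the labels. The 26 genes of chromosome Y summed to 45.3 CPM in S03 and to between 435 and 469 CPM in the other 5 libraries. By the study's methods its pigs were male except for a single animal. S03 thus differed from the other 5 in chromosome Y level as a female would, although the labels do not state its sex outright. All 10 hepatocyte markers had counts in every library. Their summed level was 60992 to 68498 CPM in S04 and S05 and 73236 CPM in S03, against 83265 to 204744 CPM in WT.

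Of the 9 genes, RGN, LGR5 and OAT had lower levels in both S04 and S05 than in any WT liver, with group log2 fold changes between -2.38 and -1.41. CTNNB1 was below WT by a small margin and RNF43 was above it. GLUL, AXIN2, ZNRF3 and TBX3 overlapped between the groups. With the quasi-likelihood test of edgeR, 0 of the 9 were called higher and 0 lower at an adjusted p of 0.05 or less, against 0.216% and 0.575% of all genes tested. Before adjustment, p was under 0.05 for 1 gene above WT (RNF43) and 3 below it (RGN, LGR5 and OAT), against 8.89% and 12.0% of all genes. The median log2 fold change of the 9 was -0.22, against 0.0031 over all genes tested. DESeq2, the tool of the study, called 0 of the 9 higher and 3 lower (RGN, LGR5 and OAT), where it called 3.26% of all genes higher and 6.3% lower. Groups did not overlap for 1 gene in the higher direction and 4 in the lower, and 19.0% and 20.1% of all genes showed the same.

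**Figure D1:**
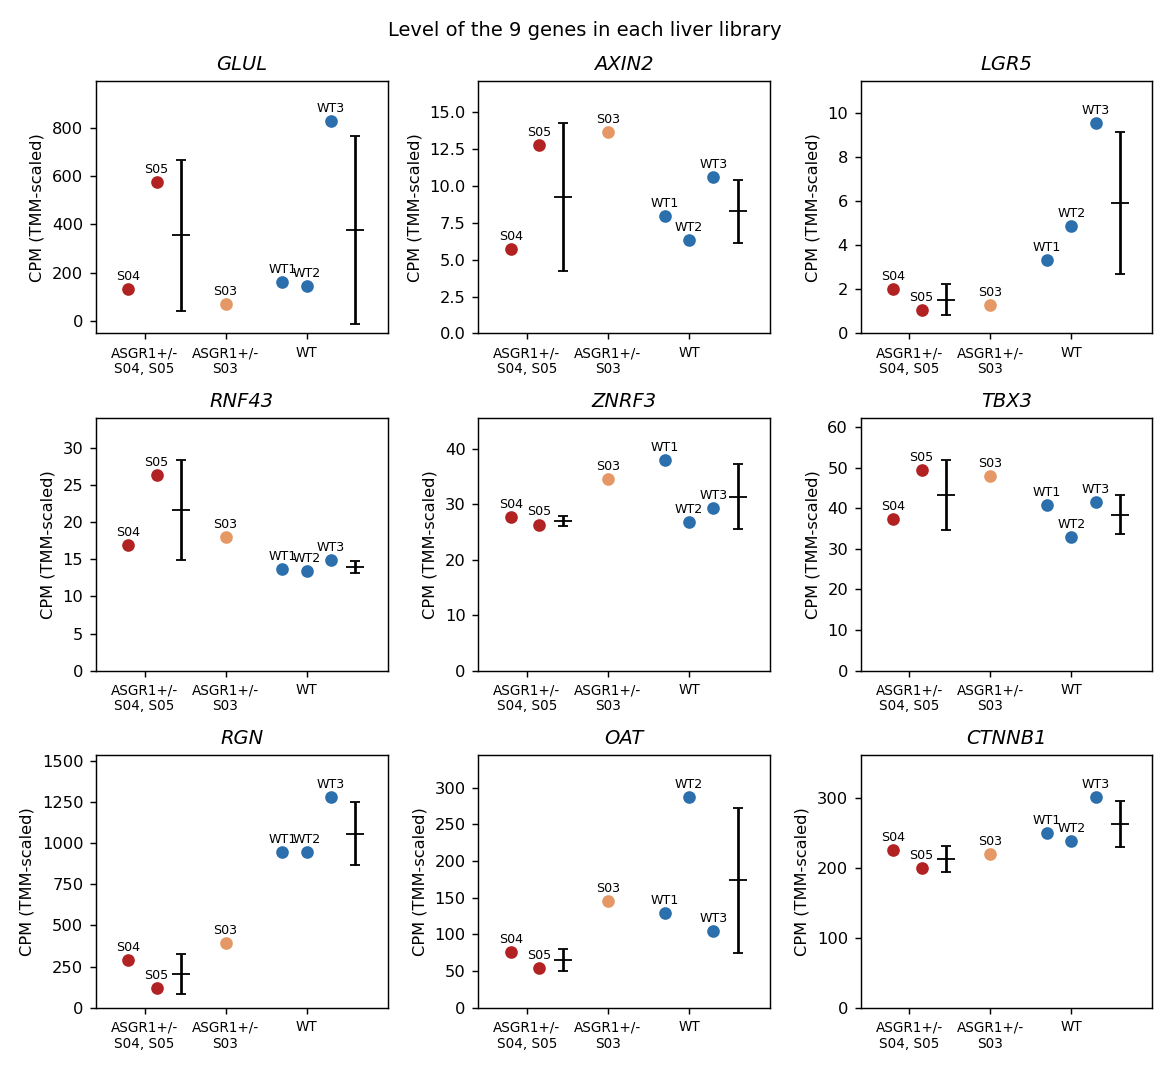
TMM-scaled CPM of the 9 genes (vertical axis, from 0 except for GLUL, whose error bar passes below it) in each liver library. Points are single animals, and the horizontal mark with its bar is the mean ± SD of S04 and S05 or of the 3 WT livers. RGN, LGR5 and OAT lie lower in S04 and S05 than in each WT liver, while GLUL is high in S05 and WT3 and low in the other 4 livers.

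CTNNB1 (gene ID 397657, chromosome 13 of Sscrofa11.1, 25163550 to 25208314) encodes β-catenin, the protein that carries the Wnt signal to the nucleus. Its level was 225 CPM in S04 and 200 CPM in S05, 220 CPM in S03, and 250, 238 and 300.5 CPM in WT1, WT2 and WT3. In CPM, every ASGR1+/- liver was below every WT liver, although the gap between S04 and WT2 was small. In TPM, S03 (103.7) lay within the WT range of 93.7 to 111.6, and S04 (93.0) was just below it. The separation of S03 from WT thus depended on the scaling. For CTNNB1 the log2 fold change was -0.30 ± 0.19 (SE), with a 95% interval from -0.77 to 0.16 (edgeR adjusted p = 0.427). β-catenin is controlled mainly through the stability of its protein, which RNA counts do not measure. Its estimated counts were not whole numbers, and whether reads were divided with other sequences was not tested.

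LGR5 (gene ID 100151994, chromosome 5, 35463257 to 35595234) encodes a receptor for R-spondins. It was the rarest of the 9 transcripts, with 33 and 17 counts in S04 and S05, 23 in S03, and 56, 71 and 133 in WT1, WT2 and WT3. In CPM these were 2.02 and 1.05 in S04 and S05, 1.30 in S03, and 3.33, 4.90 and 9.56 in WT. All 3 ASGR1+/- livers were below all 3 WT livers. That gave a log2 fold change of -1.94 ± 0.56 (SE), with a 95% interval from -3.27 to -0.60 (edgeR adjusted p = 0.129). With S03 in the fit it was -2.01 ± 0.47 (edgeR adjusted p = 0.115). DESeq2 called LGR5 lower, with an adjusted p of 0.0150 without S03 and 0.00275 with it. Over the 14 other settings the adjusted p ran between 0.00275 and 0.436, and those 2 were the only calls. When 1 library at a time was left out of DESeq2, 2 of 5 fits kept the call.

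RNF43 (gene ID 100517305, chromosome 12, 34631574 to 34695021) encodes an E3 ubiquitin ligase that removes Frizzled receptors from the cell surface, a brake on the pathway. Its level was 16.9 and 26.4 CPM in S04 and S05, 18.1 CPM in S03, and 13.6, 13.4 and 14.9 CPM in WT1, WT2 and WT3. It was the only one of the 9 genes to lie above WT in all 3 ASGR1+/- livers. The log2 fold change was 0.63 ± 0.23 (SE), with a 95% interval from 0.09 to 1.17, and the adjusted p of edgeR was 0.185. The WT livers were close together, within 0.15 log2 units, and 89.5% of the genes tested had a wider range in WT. S05 carried most of the difference: without it the log2 fold change was 0.29, and without S04 it was 0.92.

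ZNRF3 (gene ID 100153654, chromosome 14, 46092000 to 46241327) encodes the paralogous ligase. It had 27.7 and 26.3 CPM in S04 and S05, 34.5 CPM in S03, and 37.9, 26.9 and 29.2 CPM in WT. The groups overlapped, and S03 lay within the WT range. ZNRF3 had a log2 fold change of -0.22 ± 0.20 (SE), with a 95% interval from -0.68 to 0.25 (edgeR adjusted p = 0.578). RNF43 and ZNRF3 thus had estimates of opposite sign. The difference between them was not tested.

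AXIN2 (gene ID 100739604, chromosome 12, 12311293 to 12343207) encodes a scaffold of the complex that degrades β-catenin and is the most widely used target gene of the pathway. It had 5.70 and 12.8 CPM in S04 and S05, 13.6 CPM in S03, and 7.92, 6.35 and 10.6 CPM in WT1, WT2 and WT3. S04 was the lowest of the 6 livers, while S05 and S03 were the highest. The log2 fold change was 0.16 ± 0.39 (SE), with a 95% interval from -0.77 to 1.08 (edgeR adjusted p = 0.848). The interval includes a change of more than 1 log2 unit upwards. Without S05 the estimate was -0.52 and without S04 it was 0.63, so its sign rested on which ASGR1+/- liver was counted.

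TBX3 (gene ID 100152741, chromosome 14, 37582704 to 37596767) encodes a T-box transcription factor that is a β-catenin target in mouse liver. It had 37.2 and 49.3 CPM in S04 and S05, 47.9 CPM in S03, and 40.9, 32.9 and 41.5 CPM in WT. S04 lay within the WT range, and S05 and S03 lay above it. Its log2 fold change was 0.17 ± 0.20 (SE), with a 95% interval from -0.29 to 0.64 (edgeR adjusted p = 0.655).

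GLUL (gene ID 396944, chromosome 9, 123751551 to 123762575) encodes glutamine synthetase, the enzyme found in the last hepatocytes before the central vein, where it takes up ammonia that the urea cycle has left. It had 134 CPM in S04 and 574 CPM in S05, 69.6 CPM in S03, and 160, 144 and 827 CPM in WT1, WT2 and WT3. Both groups were split. S05 and WT3 were several times higher than the other livers, and S03 was the lowest of all. The highest of the WT livers was 5.75 times the lowest, and S05 was 4.28 times S04. The range in WT was 2.52 log2 units, and 0.672% of the genes tested had a wider one (median 0.43). The range of S04 and S05 was 2.09, and 0.575% of genes had a wider one (median 0.29). The log2 fold change was -0.09 ± 0.89 (SE), with a 95% interval from -2.20 to 2.03 (edgeR adjusted p = 0.965). A difference of 4-fold in either direction was therefore within the interval. Without WT3 the estimate was 1.22, without S05 it was -1.47, and without S04 it was 0.62. Mean TPM were higher in S04 and S05 (231 ± 211, SD, n = 2) than in WT (183 ± 162, SD, n = 3), while mean CPM were lower in S04 and S05 (354 ± 311) than in WT (377 ± 390), so the sign also turned with the scaling.

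RGN (gene ID 768107, chromosome X, 41725660 to 41749736) encodes regucalcin, a calcium-binding protein that also acts as the gluconolactonase of vitamin C synthesis. Without S03 it had the largest log2 fold change in size of the 9 genes, and with S03 in the fit LGR5 had (-2.01 against -1.99). It had 288 and 117 CPM in S04 and S05, 395 CPM in S03, and 947, 949 and 1278 CPM in WT1, WT2 and WT3. All 3 ASGR1+/- livers were below all 3 WT livers, with S03 nearest to WT. RGN averaged 203 ± 121 CPM (SD, n = 2) across S04 and S05, against 1058 ± 190 CPM (SD, n = 3) across WT. The log2 fold change was -2.38 ± 0.42 (SE), with a 95% interval from -3.39 to -1.38, at an adjusted p of 0.0587 with edgeR. With S03 in the fit it was -1.99 ± 0.42 (edgeR adjusted p = 0.0967). RGN passed the threshold with DESeq2 (adjusted p = 2.56e-07 without S03 and 0.000111 with it). It also passed with limma on log2(TPM + 1) (adjusted p = 0.0316), where 0.455% of all genes were called higher and 0.91% lower. Over the 14 other settings the log2 fold change ran between -3.17 and -1.86 and the adjusted p between 2.56e-07 and 0.169, with 4 calls. DESeq2 kept the call in 5 of 5 fits that left out 1 library. S04 and S05 differed by 1.30 log2 units, and 3.25% of the genes tested had a wider range there. The summed hepatocyte markers were also lower in S04 and S05, and their part in the difference was not tested. RGN lies on chromosome X, and the part of the sex of S03 in its value was not tested.

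OAT (gene ID 100156865, chromosome 14, 133808193 to 133830517) encodes ornithine aminotransferase, a mitochondrial enzyme that turns ornithine towards glutamate and is pericentral in mouse liver. It had 76.1 and 54.3 CPM in S04 and S05, 146 CPM in S03, and 129, 287 and 105 CPM in WT1, WT2 and WT3. S04 and S05 were below WT, whereas S03 lay within the WT range. OAT had a log2 fold change of -1.41 ± 0.46 (SE), with a 95% interval from -2.49 to -0.33 (edgeR adjusted p = 0.152). WT2 stood apart from the other WT livers, and without it the log2 fold change was -0.85. DESeq2 called OAT without S03 (adjusted p = 0.0232) and not with it (adjusted p = 0.301). Over the 14 other settings the adjusted p ran between 0.0232 and 0.493, with 1 call.

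**Figure D2:**
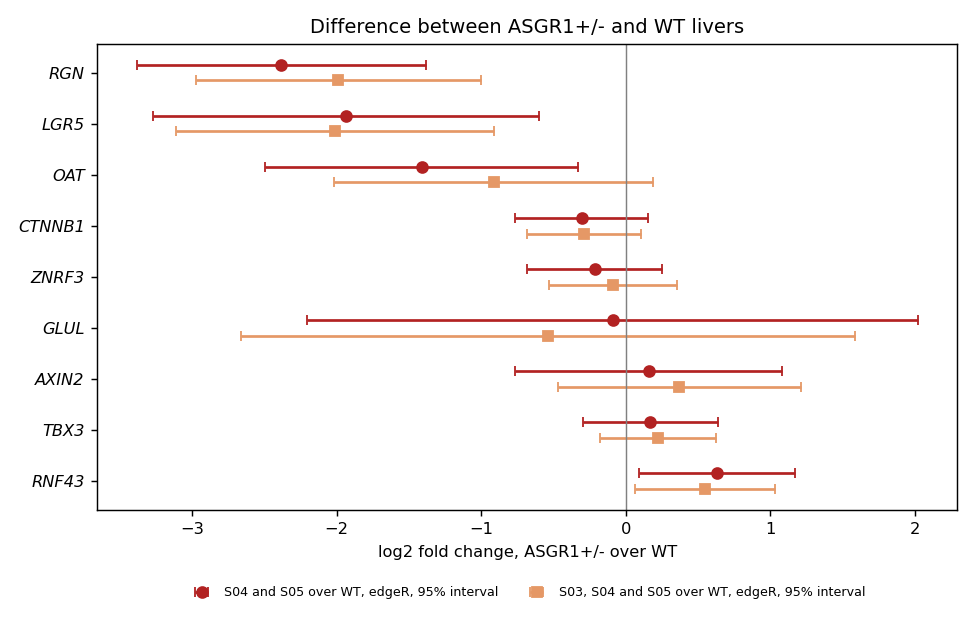
Log2 fold change of the 9 genes (horizontal axis, ASGR1+/- over WT) from edgeR, ordered from the lowest to the highest. Circles compare S04 and S05 with WT, squares add S03, and bars are 95% intervals. The intervals of RGN, LGR5, OAT and RNF43 leave out 0 without S03, and that of GLUL runs from -2.20 to 2.03.

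In CPM, S03, S04 and S05 all lay on 1 side of the WT mean for 5 of the 9 genes (LGR5, RNF43, RGN, OAT and CTNNB1). S04 and S05 lay on opposite sides of it for GLUL, AXIN2 and TBX3, and S03 lay opposite to both for ZNRF3. In CPM, S03 was below every WT liver for 4 genes (GLUL, LGR5, RGN and CTNNB1). It was above every one for 3 (AXIN2, RNF43 and TBX3) and within their range for 2 (ZNRF3 and OAT). In TPM, its CTNNB1 level was within the WT range. With all 6 libraries, edgeR again called 0 of the 9 higher and 0 lower, and 0.00755% and 0.128% of all genes were called. Unadjusted p under 0.05 in that fit were found for 1 gene above WT and 2 below it, and the share of all genes was not computed there. DESeq2 with all 6 libraries called 2 of the 9 lower (LGR5 and RGN) and 0 higher, against 3.91% and 1.73% of all genes in those directions. The median log2 fold change of the 9 was then -0.29.

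Per length of gene, the order of the 9 transcripts differed in its upper places between the groups. In S04 and S05, GLUL averaged 231 TPM and RGN 211 TPM, and their ranges overlapped (81.5 to 380 and 127 to 296 TPM). CTNNB1 followed at 90.6 TPM and OAT at 47.6 TPM, with no overlap between RGN and CTNNB1 or between CTNNB1 and OAT, although the wide range of GLUL took in CTNNB1. TBX3 averaged 12.7 TPM, RNF43 6.07, ZNRF3 6.0, AXIN2 3.33 and LGR5 0.67 TPM. RNF43 could not be placed against ZNRF3 or AXIN2, since its 2 values (4.57 and 7.57 TPM) spanned the one and reached the other. In WT, RGN averaged 1035 TPM (939 to 1105) and stood clear of GLUL at 183 TPM (74.3 to 369). GLUL, OAT at 120 TPM (63.3 to 198) and CTNNB1 at 103 TPM (93.7 to 112) overlapped. TBX3 at 10.6 TPM, ZNRF3 at 6.65, RNF43 at 3.65 and AXIN2 at 2.76 TPM followed without overlap between neighbours, while LGR5 at 2.31 TPM overlapped AXIN2. Apart from CTNNB1, the pathway genes and TBX3 were thus rare beside the enzymes in both groups.

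The 9 genes did not share 1 pattern across the livers. Likeness was measured as the root mean square difference of log2(CPM + 0.5), taken from the WT mean, over the 6 libraries, among 12718 genes with a mean of at least 1 CPM. Ranked by it, the member nearest to GLUL was CTNNB1, at place 2420, and RGN was at place 12386. To AXIN2, TBX3 was nearest at place 105, RNF43 was at place 699, and LGR5 and RGN were at places 12511 and 12635. Among the genes nearest to GLUL were SCD, the stearoyl-CoA desaturase (0.53 log2 units), BEGAIN (0.60), ACSL4, an acyl-CoA synthetase (0.62), and NADK2, the mitochondrial NAD kinase (0.62). SCD had 38.3 and 92.3 CPM in S04 and S05, 18.7 CPM in S03, and 64.9, 19.5 and 225 CPM in WT1, WT2 and WT3, high in WT3 as GLUL was. Nearest to AXIN2 were MYLK, the myosin light chain kinase (0.06), NES, which encodes nestin (0.14), SHROOM4 (0.14), MYL9, a myosin light chain (0.14), and LOC100158108 (0.15). MYLK had 37.7 and 72.8 CPM in S04 and S05, 77.7 CPM in S03, and 48.5, 39.3 and 60.6 CPM in WT. The measure is not scaled for how much a gene varies. A gene that varies little, such as CTNNB1, can therefore rank nearer than others without the same pattern. These are descriptions over 6 libraries that share their scaling, with no test.

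**Figure D3:**
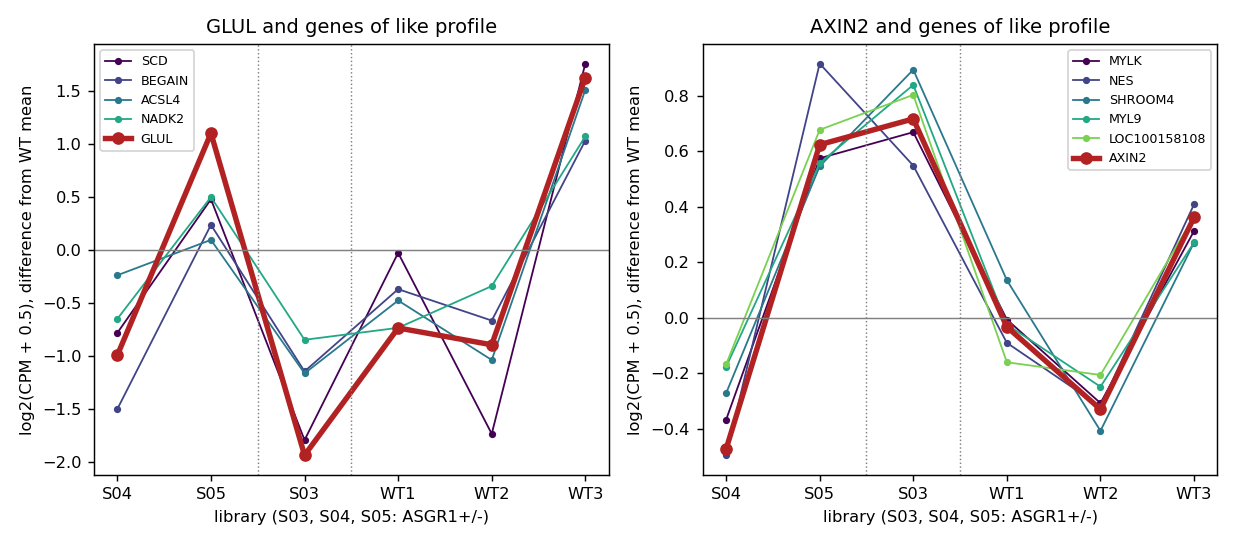
Difference of log2(CPM + 0.5) from the WT mean (vertical axis) in each library (horizontal axis) for GLUL and AXIN2, drawn thick, with 4 of the genes nearest to GLUL and the 5 nearest to AXIN2. GLUL and its neighbours are highest in WT3 and low in S03, whereas AXIN2 and its neighbours are high in S05 and S03.

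The remaining genes of the pathway were read from a list of 89, of which 80 had a row and 64 were tested. With edgeR, 0 were called higher and 3 lower (FZD1, TCF7 and APCDD1), against 0.216% and 0.575% of all genes. Of the 64, 36 lay above WT and 28 below by the sign of the log2 fold change (median 0.05). Groups did not overlap for 10 in the higher direction and 15 in the lower, against 19.0% and 20.1% of all genes. At an unadjusted p under 0.05 there were 3 and 10, against 8.89% and 12.0% of all genes. With S03 in the fit, 0 were called in either direction, while unadjusted p under 0.05 were found for 6 above and 3 below WT. The share of all genes at that unadjusted p was not computed for that fit. Of the 80 with a row, DESeq2 called 3 higher and 7 lower without S03, where it called 3.26% and 6.3% of all genes.

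Among ligands and R-spondins, 19 of 24 had a row and 12 were tested, and edgeR called 0 higher and 0 lower, with 0 in either direction at an unadjusted p under 0.05. The ligands of the central vein were rare in these livers. WNT2 had 1.90 and 3.53 CPM in S04 and S05, 5.55 CPM in S03, and 2.50, 3.80 and 3.81 CPM in WT (edgeR log2 fold change -0.31, adjusted p = 0.701). WNT9B had 0.31 and 2.29 CPM in S04 and S05, 1.87 CPM in S03, and 2.44, 2.07 and 2.08 CPM in WT (edgeR log2 fold change -0.76, adjusted p = 0.591). S04 alone was low for WNT9B. RSPO3, the R-spondin of the central vein, had 0.55 and 0.74 CPM in S04 and S05, 1.19 CPM in S03, and 0.77, 1.31 and 1.80 CPM in WT (edgeR log2 fold change -0.98, adjusted p = 0.347). The 6 markers of central vein endothelium, which include these genes, summed to 9.39 to 15.6 CPM in S04 and S05, 18.4 CPM in S03 and 12.7 to 16.4 CPM in WT. RSPO1, chosen after its values were seen, was too rare for the edgeR test and was called higher by DESeq2 without S03 (adjusted p = 0.0412) and not with it (adjusted p = 0.0672), with 24 and 8 counts in S04 and S05, 6 in S03 and 2, 0 and 1 in WT.

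Among 13 tested receptors and coreceptors, edgeR called 1 lower and 0 higher. FZD1, a Frizzled receptor, fell to 11.8 and 11 CPM in S04 and S05, against 26.1, 28.3 and 26.5 CPM in WT, a log2 fold change of -1.24 ± 0.17 (SE, edgeR adjusted p = 0.0398). S03 lay between, at 18.3 CPM. The 14 tested signal transducers, such as DVL, APC, GSK3 and casein kinase genes, had 0 calls in either direction with edgeR. At an unadjusted p under 0.05, where 8.89% of all genes were higher, 2 of the 14 were higher. Of these DVL2, chosen after its values were seen, was called higher by DESeq2 without S03 (adjusted p = 0.0493) and not with it (adjusted p = 0.0844).

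Among 13 tested TCF/LEF factors and coactivators, edgeR called 1 lower. TCF7, a TCF factor that is also abundant in T cells, fell to 2.94 and 2.35 CPM in S04 and S05, against 12.9, 10.9 and 12.4 CPM in WT (log2 fold change -2.18 ± 0.25 (SE), edgeR adjusted p = 0.0310). S03 had 11.9 CPM, a WT level. The 7 lymphocyte markers summed to 35.3 to 50.0 CPM in S04 and S05 and 79.6 CPM in S03, against 51.6 to 119 CPM in WT, and their part in the TCF7 difference was not tested. TLE3, a corepressor of TCF, was above WT in S04 and S05 with 43.9 and 55.7 CPM, against 22.9, 16.2 and 24.7 CPM in WT, with S03 at 25.0 CPM (edgeR log2 fold change 1.23, adjusted p = 0.0613). DESeq2 called TLE3 higher without S03 (adjusted p = 0.000485) and not with it (adjusted p = 0.0696).

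Among 12 tested inhibitors and feedback targets, edgeR called 1 lower and 0 higher. Groups did not overlap for 6 in the lower direction and 1 in the higher, against 20.1% and 19.0% of all genes. APCDD1, a membrane inhibitor of Wnt, fell to 8.40 and 8.49 CPM in S04 and S05, against 23.3, 21.2 and 19.5 CPM in WT (log2 fold change -1.34 ± 0.19 (SE), edgeR adjusted p = 0.0398). S03 had 27.1 CPM, above WT. TNFRSF19, a Wnt target of the TNF receptor family, had 2.88 and 1.74 CPM in S04 and S05, 17.1 CPM in S03 and 6.79, 8.15 and 9.77 CPM in WT (edgeR log2 fold change -1.83, adjusted p = 0.0634, DESeq2 adjusted p = 0.000168 without S03 and 0.946 with it). NOTUM, a secreted enzyme that inactivates Wnt ligands, had 29.0 and 43.2 CPM in S04 and S05, 53.1 CPM in S03 and 67.2, 76.8 and 64.2 CPM in WT (edgeR log2 fold change -0.94, adjusted p = 0.0840, DESeq2 adjusted p = 0.00602 without S03 and 0.0825 with it). The 3 calls of the pathway depended on the libraries used. None held in edgeR with S03, whose adjusted p were 0.107 for FZD1, 0.415 for TCF7 and 0.602 for APCDD1. Without S04, S05, WT1 or WT2 in turn none of the 3 passed the threshold, and without WT3 only TCF7 (edgeR adjusted p = 0.0456) and APCDD1 (edgeR adjusted p = 0.0485) were called. Over those 5 fits the log2 fold changes stayed between -1.30 and -1.18 for FZD1, -2.35 and -2.02 for TCF7, and -1.40 and -1.26 for APCDD1.

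The other pericentral genes lay mostly below WT. Of 25 tested, 22 lay below WT and 3 above by the sign of the log2 fold change (median -0.84). Groups did not overlap for 13 in the lower direction and 0 in the higher, against 20.1% and 19.0% of all genes. At an unadjusted p under 0.05 there were 13 lower and 0 higher, against 12.0% and 8.89% of all genes. With edgeR, 2 were called lower and 0 higher, against 0.575% and 0.216% of all genes. DESeq2 called 12 lower and 0 higher, against 6.3% and 3.26% of all genes. CYP1A2, a cytochrome P450 of drug and caffeine metabolism, fell to 63.2 and 62.7 CPM in S04 and S05, against 340, 487 and 693 CPM in WT, with 99.2 CPM in S03. Its log2 fold change was -3.01 ± 0.35 (SE, edgeR adjusted p = 0.0310), and -2.75 with S03 in the fit (edgeR adjusted p = 0.0484). The CYP1A2 call was lost without S04, S05 or WT2 (edgeR adjusted p = 0.0807, 0.150 and 0.0969), while its log2 fold change there was -3.01, -2.98 and -3.04. Estimated counts of CYP1A2 were not whole either.

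Among the rest, ANG, which encodes angiogenin, had an edgeR log2 fold change of -1.46 (adjusted p = 0.0503). CYP2E1, the ethanol-oxidising cytochrome P450, had 855 and 742 CPM in S04 and S05, 1837 CPM in S03 and 3076, 1844 and 3682 CPM in WT (edgeR log2 fold change -1.84, adjusted p = 0.0633). LHPP had an edgeR log2 fold change of -0.84 (adjusted p = 0.0804). CA3, a carbonic anhydrase, had 1 and 3 counts in S04 and S05, 14 in S03, and 53, 19 and 143 in WT (edgeR adjusted p = 0.0824). GULO, chosen after its values were seen, encodes the enzyme that follows RGN in vitamin C synthesis. It had 27.1 and 5.21 CPM in S04 and S05, 61.8 CPM in S03, and 120, 96.4 and 273 CPM in WT, with an edgeR log2 fold change of -3.33 (adjusted p = 0.0897). As for RGN, S05 was the lowest and all 3 ASGR1+/- livers were below WT. The study selected metabolic genes on these livers for display, so metabolic genes of these lists may not be independent evidence of a direction.

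The periportal genes, which mark the opposite end of the lobule, also lay mostly below WT. Of 23 tested, 18 had a log2 fold change under 0 and 5 one over 0 (median -0.71). Groups did not overlap for 11 in the lower direction and 2 in the higher, against 20.1% and 19.0% of all genes. With edgeR 0 were called in either direction. At an unadjusted p under 0.05 there were 9 lower and 1 higher, against 12.0% and 8.89% of all genes. DESeq2 called 9 lower and 1 higher, against 6.3% and 3.26% of all genes. FBP1, a gluconeogenic enzyme, had 148 and 92.7 CPM in S04 and S05, 623 CPM in S03 and 594, 1185 and 475 CPM in WT (edgeR log2 fold change -2.64, adjusted p = 0.0587). ETNPPL, which breaks down phosphoethanolamine, had 74.8 and 85.9 CPM in S04 and S05, 49.8 CPM in S03 and 173, 272 and 321 CPM in WT (edgeR log2 fold change -1.67, adjusted p = 0.0587). UROC1 of histidine breakdown (-1.88), ALB, which encodes albumin (-2.95), and HSD17B13, a lipid droplet protein (-1.51), had negative edgeR log2 fold changes, with adjusted p between 0.0690 and 0.0730. HAL, chosen after its values were seen, had 132 and 287 CPM in S04 and S05, against 64.8, 76.8 and 26.3 CPM in WT and 90.9 CPM in S03 (DESeq2 adjusted p = 0.00282, edgeR adjusted p = 0.10). The difference between the pericentral and the periportal lists was not tested.

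**Figure D4:**
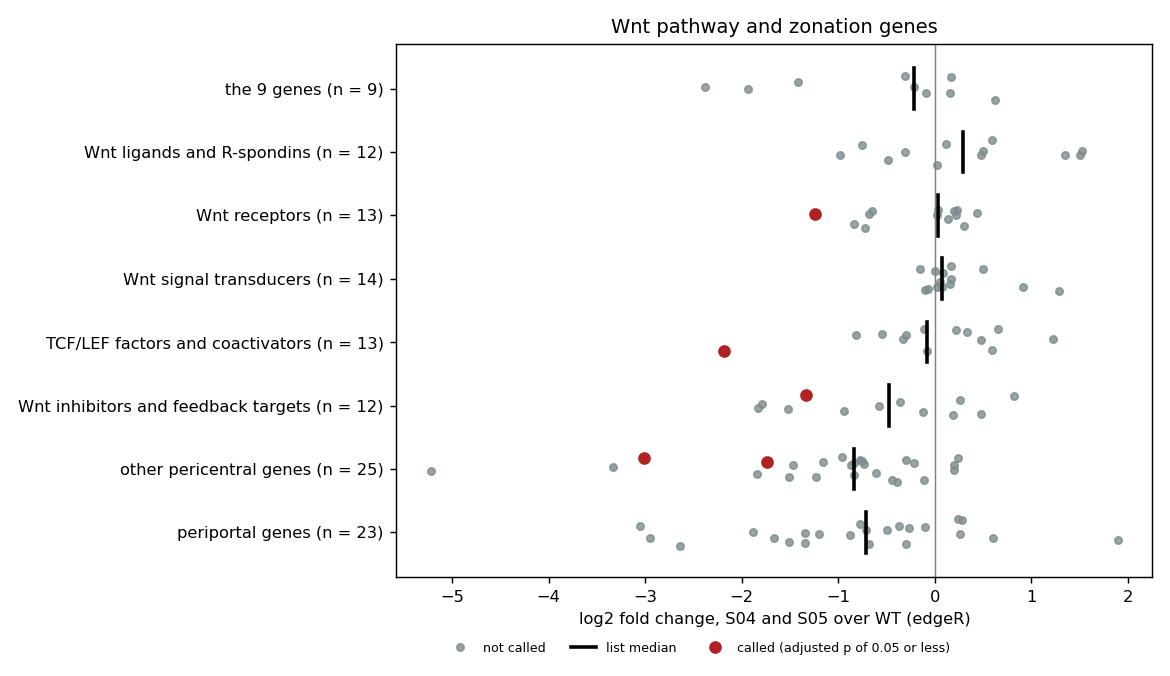
The edgeR log2 fold change, S04 and S05 over WT (horizontal axis), for the 9 genes and 7 lists of pathway and zonation genes. Each point is a tested gene, red points were called at an adjusted p of 0.05 or less, and black bars are list medians. The median of the 9 genes is -0.22, and both zonation lists lie lower, at -0.84 and -0.71.

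Marker sums of several cell types also differed between the groups. For hepatocytes, 8 of 10 markers were lower in S04 and S05 without overlap and 1 was higher. These markers include ALB and CPS1, which are also on the periportal list, so the hepatocyte and periportal lists are not separate observations. Of all genes tested, 20.1% were lower and 19.0% higher without overlap. Endothelial markers summed to 330 to 438 CPM in S04 and S05 and 952 CPM in S03, against 514 to 598 CPM in WT, and 6 of 10 were lower and 1 higher without overlap. Erythroid markers summed to 2.94 to 17.7 CPM in S04 and S05 and 788 CPM in S03, against 81.7 to 244 CPM in WT. Cholangiocyte markers summed to 31.1 to 36.4 CPM in S04 and S05 and 22.1 CPM in S03, against 18.2 to 30.4 CPM in WT. Macrophage sums (1078 to 1406 CPM in S04 and S05, 729 CPM in S03, 1088 to 1930 CPM in WT) and stellate cell sums (166 to 314 CPM in S04 and S05, 598 CPM in S03, 210 to 546 CPM in WT) overlapped between S04 and S05 and WT. The part of these cell types in the differences of the 9 genes was not tested.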

How the data were processed

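RNA of 6 minipig livers, 1 library per animal, was read on a BGISEQ instrument, and the authors trimmed with SOAPnuke and aligned with HISAT2 2.0.4 and Bowtie2 (both also in the submitters' processing notes, with Sscrofa11.1 as the build). The quantifier is not given in the sources used here. The deposited table holds an estimated count per gene and library, which is not normalized (12.0% were not whole). It also holds TPM and FPKM that the authors computed. FPKM and the deposited group averages were not used. Gene positions come from the RefSeq annotation of Sscrofa11.1, where all 17109 gene IDs matched.

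Estimated counts were rounded and tested two-sided in R 4.3.3 by edgeR 4.0.16 (glmQLFit and glmQLFTest), after TMM scaling and filterByExpr (minimum count 10), using Benjamini-Hochberg adjustment over 13401 genes (13243 with all 6 libraries). A gene was called at an adjusted p of 0.05 or less. Groups were taken from the labelled genotype. Each p-value weighs the group difference against a spread between animals that is estimated with help from all genes. The main fit had 2 and 3 animals. Low counts limit the rare transcripts as well. DESeq2 1.42.0, limma 3.58.1 on log2(TPM + 1) and log2(TPM + 0.1), other scalings (RLE, upper quartile, library totals alone), no filter, all 6 libraries and leaving out each library were the alternatives. DESeq2 with each library left out was added after the data were seen. The edgeR, DESeq2 and limma fits were tested on simulated data, and the summaries drawn from them were not.

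The 9 genes and all lists were chosen with earlier results of these data known. Genes named were the 9, the called genes of each list and then those with the smallest p up to 6 per list, the central vein ligands, and the 5 profiles nearest to GLUL and to AXIN2. Some genes that this rule selects are not reported here. No sequences are shown, since sequence was not used here.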

Additional observations from a re-analysis of the deposited data

How the results depend on the processing

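Of the 9 genes, LGR5, RNF43, ZNRF3, RGN, OAT and CTNNB1 kept their direction under every alternative run. No edgeR alternative called any of the 9. The count called lower, 0 in edgeR, was 3 with DESeq2, 2 with DESeq2 and all 6 libraries, and 1 with limma at either pseudocount (RGN). DESeq2 with 1 WT library left out called between 1 and 3 lower, and the shares of all genes were not computed for those fits. GLUL turned positive with library totals alone (0.10), with limma (0.30 at a pseudocount of 1, 0.31 at 0.1), and without S04 (0.62) or WT3 (1.22) in edgeR, and without them in DESeq2 (0.61 and 1.22). Its range over the libraries left out was -1.47 to 1.22. AXIN2 turned negative without S05 (-0.52 in edgeR and in DESeq2) and was near 0 without WT2 (-0.0012), within a range of -0.52 to 0.63. TBX3 was -0.030 without S05 in edgeR and -0.029 in DESeq2, within -0.030 to 0.36. The cause was not tested.

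For the other pathway genes, calls lower (3) were 0 with all 6 libraries, 7 with DESeq2, 1 with DESeq2 and all 6, 1 with library totals alone, 1 with limma at each pseudocount and 0 to 2 with 1 library left out, and DESeq2 called 3 higher. For the other pericentral genes, calls lower (2) were 1 with all 6 libraries, 12 with DESeq2, 9 with DESeq2 and all 6, 4 and 7 with limma at pseudocounts of 1 and 0.1, and 0 to 1 with 1 library left out. For periportal genes, calls lower (0) were 9 with DESeq2, 3 with DESeq2 and all 6, 1 with library totals alone, 4 with limma at each pseudocount and 0 to 2 with 1 library left out, and DESeq2 called 1 higher with or without S03. Calls over all genes moved with the setting too. Of all genes, edgeR called 0.575% lower, and 0.128% with all 6 libraries. DESeq2 called 6.3% lower and 3.26% higher, and with all 6 libraries 3.91% and 1.73%. With limma on log2(TPM + 1), 0.91% were called lower. For the other settings these shares were not computed. Library totals alone and limma on log2(TPM + 0.1) raised the median log2 fold change of all genes to 0.11 and 0.10, against 0.0031, so values there are to be read against that shift. Where S04 or S05 was left out, the other stood alone in its group and was assumed to vary as the WT livers. No paired analysis was run, because the labels tie no ASGR1+/- animal to a WT animal. Replicate numbers were taken as names only.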
